A study of Mus musculus with 4 samples.

Results

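The mitochondrial chromosome of the mouse carries 37 annotated genes, and all 37 were present among the 37620 gene identifiers of the count tables. They are 13 protein-coding genes, 22 tRNA genes and 2 rRNA genes, recognised by the symbol prefix mt- after matching Ensembl identifiers to the gene annotation of the NCBIM37 build. Membership was defined by chromosome and not by level. The set was nevertheless picked for description from earlier values of these same libraries, in which mt-Co1 took a large part of all counts, so its levels and ratios are given here as description, with no test. RNA of 4 mouse stem cell cultures was sequenced in the series, with 1 library per condition, so no difference below has a replicate check and no p-value is given.

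R1 embryonic stem cells, a mouse line maintained without feeder cells in medium with serum, were exposed for 2 days to 3 combinations of cytokines and inhibitors. The first, labelled 2i and called 2i-L here, contained CHIR99021, which inhibits GSK3, at 3 µM, together with 1 µM of PD0325901, which inhibits MEK, and no LIF, the cytokine that sustains embryonic stem cells. The second, labelled 2i-Jaki and called 2iJ, added a JAK inhibitor at 2 µM. The third, labelled 2i-Jaki-BMP-Alk5i and called 2iJ+B-A, further added BMP4 at 10 ng/ml and an inhibitor of the receptor ALK5 at 10 µM. All 3 R1 cultures thus shared the GSK3 and MEK inhibitors and lacked LIF. The fourth library, TSC, came from the trophoblast stem cell line F4, also labelled day 2, so that cell line and culture medium cannot be told apart in any comparison with it. The question was how far R1 cells under the third combination had moved towards trophoblast, and here it is asked of the mitochondrial RNAs.

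Mitochondrial DNA is a small circle with genes on both strands and almost no space between them. Each strand is transcribed as a long precursor, which is cut mainly at the tRNAs that punctuate it into rRNAs, tRNAs and mRNAs, and most of the mRNAs then receive a poly-A tail. The proteins are core subunits of respiratory complexes I, III and IV and of ATP synthase (complex V), and each complex is completed by subunits encoded in the nucleus. The 2 rRNAs and 22 tRNAs serve the mitochondrial ribosome. Nuclear chromosomes also hold insertions of mitochondrial DNA, called nuclear copies below. In these annotations the plus strand carried 12 of the mRNA genes, both rRNA genes and 14 tRNA genes, and the minus strand carried mt-Nd6 and 8 tRNA genes.

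The reference sequence shows what counting by uniquely mapped reads could and could not see on this chromosome. A stretch of chromosome 1, chr1:24618374-24623027 on the minus strand, matched chrM:6390-11042 over 4654 aligned bases with 99.936% identity, 2 mismatches and 1 gap. It was the longest of 42 nuclear matches, and the next, on chromosome 2, had 3260 aligned bases and 97.362% identity. The bases shared by mt-Atp8 and mt-Atp6 (capitals, 43 bases) with their flanks, chrM:7907-7989 on the plus strand, are shown first because they illustrate both limits at once: the genes overlap on the same strand, and the nuclear copy at chr1:24621428-24621510 on the minus strand is letter for letter the same.
mt-Atp8 and mt-Atp6, mitochondrial: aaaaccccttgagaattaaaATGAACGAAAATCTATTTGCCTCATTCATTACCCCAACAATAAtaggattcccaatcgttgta
mt-Atp8 and mt-Atp6, nuclear copy: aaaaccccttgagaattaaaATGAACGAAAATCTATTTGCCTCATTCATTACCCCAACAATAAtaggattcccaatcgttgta

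The places where the 2 sequences part are shown next because only a read crossing one of them can be told from its copy inside the stretch. The mismatch in mt-Nd3 lies in chrM:9441-9481 on the plus strand and in chr1:24619936-24619976 on the minus strand, and the capital marks the differing base. The gap lies in the tRNA gene mt-Tr, in chrM:9808-9848 and chr1:24619568-24619609, where the capitals mark the A that the nuclear copy has once more. The other mismatch was 3 bases from the edge of the copy, in mt-Co1.
mt-Nd3, mitochondrial: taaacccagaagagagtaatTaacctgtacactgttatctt
mt-Nd3, nuclear copy: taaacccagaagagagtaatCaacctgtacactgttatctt
mt-Tr, mitochondrial: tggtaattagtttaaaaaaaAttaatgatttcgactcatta
mt-Tr, nuclear copy: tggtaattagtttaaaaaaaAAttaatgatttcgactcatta

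The last sequence, chrM:13522-13595 read on the plus strand, shows the junction at which the strands meet. The capitals are the 14 bases shared by the end of mt-Nd5 on the plus strand and the end of mt-Nd6 on the minus strand, so a read there is assigned to a gene only by its strand.
mt-Nd5 and mt-Nd6: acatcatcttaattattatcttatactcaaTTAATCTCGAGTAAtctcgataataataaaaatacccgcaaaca

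The libraries held 33913984 to 36964392 read pairs counted on the strand of a gene, which was 82.23% to 83.58% of all their pairs, and 6.722% to 7.006% of pairs mapped to several places and were not counted on any gene. The labels were checked on marker genes. Pou5f1, a defining gene of embryonic stem cells, stood at 897.8 CPM (counts scaled to a common library total) in 2i-L and 1.332 CPM in TSC, and Elf5, a defining gene of trophoblast stem cells, stood at 296.7 CPM in TSC and at most 0.134 CPM in the R1 libraries. The summed level of 7 trophoblast stem cell markers was 137.2, 205.2, 795.2 and 2054 CPM in 2i-L, 2iJ, 2iJ+B-A and TSC, and that of 7 embryonic stem cell markers was 4026, 3404, 2316 and 532.9 CPM. The trophoblast sum in 2iJ+B-A was mostly Krt8 (555.2 CPM), with Hand1 at 104.0 and Esx1 at 73.14 CPM, while Eomes (10.68 CPM in 2iJ, 2.755 in 2iJ+B-A) and Fgfr2 (49.84 and 26.18 CPM) were lower there than in 2iJ. Primitive endoderm markers summed to 10.15, 19.03, 40.92 and 52.03 CPM. Like the trophoblast stem cell sum, this was highest in the 2 libraries in which the mitochondrial share given below was also highest. The embryonic stem cell sum was lowest in these 2. In 2iJ+B-A 3 of the 5 primitive endoderm markers tested were above 2iJ by at least the fold used below, where 5.90% of all tested genes were. These were Gata4, Sox17 and Pdgfra, at only 3.931, 2.327 and 10.46 CPM in 2iJ+B-A, where most of the sum was Dab2 (22.95 CPM). Fibroblast markers summed to 37.5 CPM or less. Markers of differentiated trophoblast summed to 28.16 CPM or less, with 4 of those 5 markers at 0 in every R1 library. The remaining marker, Gcm1, was at 1.441, 5.632 and 28.16 CPM in 2i-L, 2iJ and 2iJ+B-A, and at 0.3968 CPM in TSC. The part of mixed cell types in the mitochondrial values was not tested.

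Mitochondrial genes took a larger share of gene counts in 2iJ+B-A and TSC than in the other libraries. The share was 2.50% (95% exact binomial interval 2.49% to 2.50%) for 2i-L, 2.75% (2.74% to 2.75%) for 2iJ, 3.50% (3.50% to 3.51%) for 2iJ+B-A and 3.43% (3.42% to 3.44%) for TSC. These intervals, like all others here, cover counting error only, and the spread between cultures is unknown. In bulk RNA a share of this kind cannot tell fewer cells of a type from less RNA per cell. mt-Co1 alone carried 43.7% (2iJ+B-A) to 53.0% (TSC) of the mitochondrial counts, and without it the gap between 2iJ+B-A and TSC was wider: the other 36 genes took 1.28%, 1.46%, 1.97% and 1.61% of gene counts in the same order of libraries. So 2iJ+B-A and TSC came to similar totals with different composition, TSC through mt-Co1 and 2iJ+B-A through the other mRNAs.

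**Figure D1:**
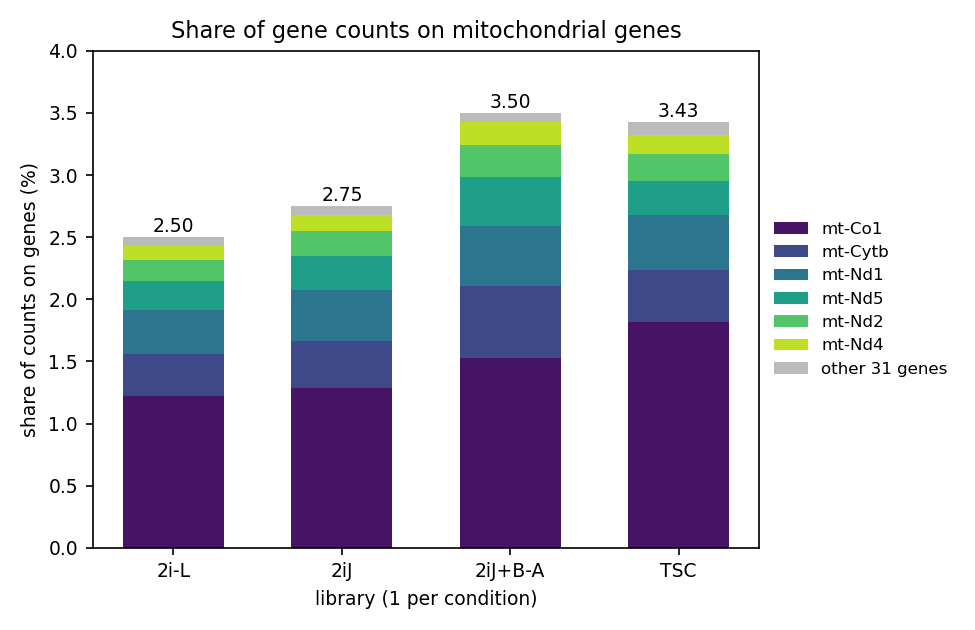
Stacked bars give the percent of gene counts (vertical axis, from 0) taken by mitochondrial genes in each of the 4 libraries, split into the 6 genes with most counts and the other 31. The totals printed above the bars run from 2.50% in 2i-L to 3.50% in 2iJ+B-A, and the mt-Co1 segment is tallest in TSC.

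Not all members could be described by level. Of the 37 genes, 11 reached 1 CPM in at least 1 library and 10 in every library: 7 mRNAs, both rRNAs, and the tRNA genes mt-Tw and mt-Tp, of which mt-Tp did not reach it in every library. Another 11 genes, all tRNAs, had no count on their own strand in any library, which allows at most 0.080 to 0.090 CPM (3 counts) for a gene. The remaining 15 genes had counts below 1 CPM throughout. The numbers that follow therefore describe the genes this counting could see.

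Among the mRNAs, mt-Co1, which encodes the catalytic core subunit of complex IV, had the highest count of any gene in every library. Its read pairs numbered 418851, 450691 and 566077 in the R1 libraries, in the order 2i-L, 2iJ and 2iJ+B-A, and 615867 in TSC. Per length it stood at 8139, 8512, 9799 and 11297 CPM per kilobase, the highest of the 9 mRNA and rRNA genes above 1 CPM. mt-Nd1, a core subunit of complex I, came next with 122913, 141887, 178794 and 151884 pairs, followed by mt-Cytb, the mitochondrially encoded subunit of complex III, with 115355, 133249, 211696 and 141786. In 2iJ+B-A alone mt-Cytb had more pairs than mt-Nd1: the ratio of mt-Cytb to mt-Nd1 was 1.18 (1.18 to 1.19) there, and 0.939 (0.931 to 0.946), 0.939 (0.932 to 0.946) and 0.934 (0.927 to 0.940) for 2i-L, 2iJ and TSC.

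The other complex I subunits above the limit were lower. mt-Nd5 had 80090, 97426, 145978 and 91515 pairs in 2i-L, 2iJ, 2iJ+B-A and TSC, mt-Nd2 had 58530, 68070, 95546 and 73896, and mt-Nd4 had 37656, 45378, 67450 and 50396. All 3 were highest in 2iJ+B-A and lowest in 2i-L. Per length in 2iJ the order was mt-Co1 (8512 CPM per kilobase), mt-Nd1 (4326), mt-Cytb (3399), mt-Nd2 (1914), mt-Nd5 (1559) and mt-Nd4 (960.9), the same order as in the other libraries. This order depends on how length is counted: per 1000 read-length windows with no exact nuclear copy, mt-Nd4 moved from rank 6 to rank 4 in all 4 libraries, with 2638 CPM in 2iJ.

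The rRNAs and mt-Nd6 were far lower. mt-Rnr2, the large-subunit rRNA, had 15863, 17999, 21803 and 20284 pairs, and mt-Rnr1, the small-subunit rRNA, had 4716, 4682, 3962 and 9693. mt-Nd6, the complex I subunit on the minus strand, had 2996, 2815, 3027 and 7031. TSC was highest for mt-Rnr1 and mt-Nd6, and the 3 R1 libraries lay close together for mt-Nd6. These libraries were enriched for poly-A RNA, and mitochondrial rRNAs, though abundant in cells, carry only short tails. In human cells the mRNA of ND6 is also known to lack a stable tail. The levels of these 3 genes are therefore levels after that selection, and its part in the differences was not tested.

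The other 6 mRNAs were at or near 0. mt-Co2 and mt-Co3 (complex IV) had 14 to 25 and 12 to 28 pairs, mt-Atp6 and mt-Atp8 (ATP synthase) had 13 to 22 and 2 to 5, and mt-Nd3 and mt-Nd4l (complex I) had 0 to 5 and 0 to 4. Together they took 74, 45, 73 and 67 pairs in 2i-L, 2iJ, 2iJ+B-A and TSC, 0.0047% to 0.0086% of mitochondrial counts over 2998 bases. All 6 lie whole within the chromosome 1 stretch. Counted over all 42 nuclear matches, 98.7% of the 126-base windows of mt-Nd3 and 100% of those of the other 5 have an exact nuclear copy. The share was 59.9% for mt-Nd4, 26.5% for mt-Co1 and 0.438% for mt-Nd2, which lies outside that stretch, and 0% for mt-Nd1, mt-Nd5, mt-Nd6, mt-Cytb and both rRNAs. Over the chromosome 27.8% of windows have such a copy. Read pairs with several equally good places were not counted, so the values of these 6 genes are uncertain, no ratio between libraries is given for them, and those of mt-Nd4 and mt-Co1 are levels of part of the gene. The shares were computed on the reference genome, and the copies carried by R1 and F4 cells were not examined.

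**Figure D2:**
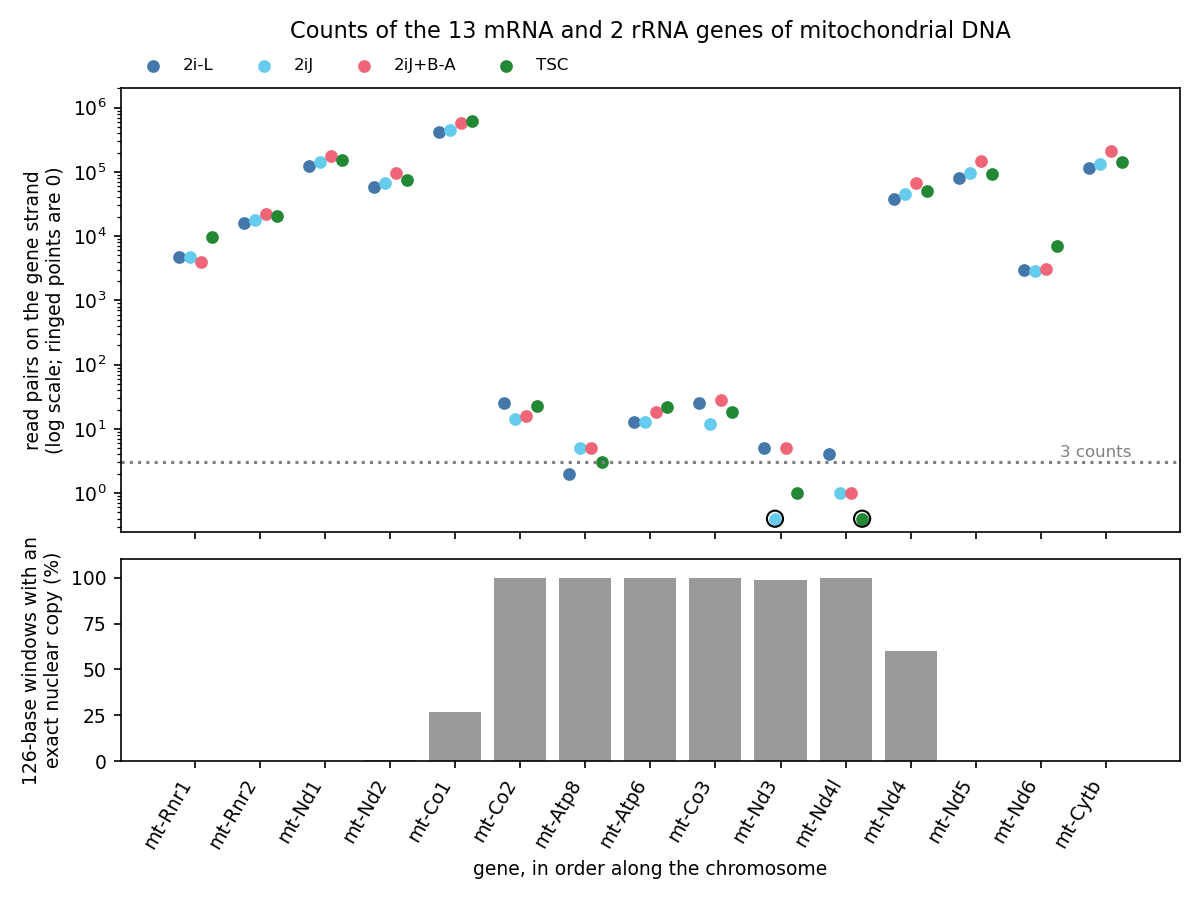
The upper plot gives read pairs on the gene strand (log axis) for the 13 mRNA and 2 rRNA genes in order along the chromosome, with 1 point per library and ringed points for counts of 0; the lower bars give the percent of 126-base windows with an exact nuclear copy. The 6 genes with bars at or near 100% had at most 28 pairs, and the 9 others had at least 2815.

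The tRNA genes are 59 to 75 bases long, all shorter than a read, and a pair that also touches a neighbouring gene on the same strand is not assigned. Their 22 genes together had 167, 149, 163 and 296 pairs in 2i-L, 2iJ, 2iJ+B-A and TSC. Only 4 of them reached 10 pairs in a library: mt-Tw with 96, 81, 105 and 184, mt-Tp with 37, 25, 22 and 58, mt-Tt with 20, 26, 22 and 29, and mt-Tq with 5, 9, 5 and 12. These pairs come from RNA longer than the tRNA or from trimmed reads, and they are not a measure of mature tRNA.

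For comparisons between libraries, log2 ratios were taken of CPM + 0.5 after TMM scaling, over 14298 genes above 1 CPM in at least 1 library, and a gene was counted as past the fold where this ratio was 1 or more in either direction. The comparison of 2iJ with 2i-L asks what JAK inhibition added. No mitochondrial gene was past the fold, where 1.24% of all tested genes were higher and 0.909% lower. The 7 mRNAs had a median log2 ratio of 0.17 (that of mt-Cytb, counting interval 0.16 to 0.18) against 0.010 for all genes, and 6 of the 7 were above 0. The highest were mt-Nd5 at 0.24 and mt-Nd4 at 0.23, mt-Co1 was at 0.065, and mt-Nd6 was at -0.13 (-0.20 to -0.056). mt-Rnr2 was at 0.14, and mt-Rnr1 was at -0.051 (-0.11 to 0.0072), an interval that holds 0. The middle 80% of all genes lay between -0.34 and 0.40, and all these values fell within it.

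The comparison of 2iJ+B-A with 2iJ asks what BMP4 and ALK5 inhibition added. Again no mitochondrial gene was past the fold, where 5.90% of all tested genes were higher and 3.14% lower. The median of the 7 mRNAs was 0.36 (mt-Nd2, 0.35 to 0.38), against 0.0011 for all genes, with 6 of 7 above 0. mt-Cytb was highest at 0.54 (0.53 to 0.55), a 1.46-fold level and higher than 86.7% of tested genes, followed by mt-Nd5 at 0.46 (0.45 to 0.47) and mt-Nd4 at 0.45 (0.43 to 0.46). mt-Nd1 and mt-Co1 were at 0.21 and 0.20. The rRNAs parted: mt-Rnr2 was at 0.15, while mt-Rnr1 was at -0.37 (-0.43 to -0.30), a 0.776-fold level. mt-Nd6 was at -0.021 (-0.095 to 0.053), which holds 0 and turns to 0.026 with plain CPM scaling.

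In this comparison the ratio tended to be higher further along the chromosome, with mt-Co1 an exception. Over the 8 long plus-strand genes, Spearman's rho between the ratio and the order of the genes was 0.929, from mt-Rnr1 nearest the start to mt-Cytb nearest the end. It was 0.690 for 2iJ against 2i-L and -0.690 for TSC against 2iJ. These 3 values describe 8 genes that share a precursor RNA and the same libraries, and all 3 comparisons use the 2iJ library. Ratios within a library, which need no reference library, did not all move this way. Those of mt-Nd4 and mt-Nd5 stood highest in 2iJ+B-A: mt-Nd4 to mt-Nd1 was 0.306, 0.320, 0.377 and 0.332 in 2i-L, 2iJ, 2iJ+B-A and TSC, and mt-Nd5 to mt-Nd1 was 0.652, 0.687, 0.816 and 0.603. That of mt-Co1, which also lies after mt-Nd1, was not raised there, at 3.41, 3.18, 3.17 and 4.06. Its counting intervals in 2iJ (3.158 to 3.195) and 2iJ+B-A (3.149 to 3.183) overlap.

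**Figure D3:**
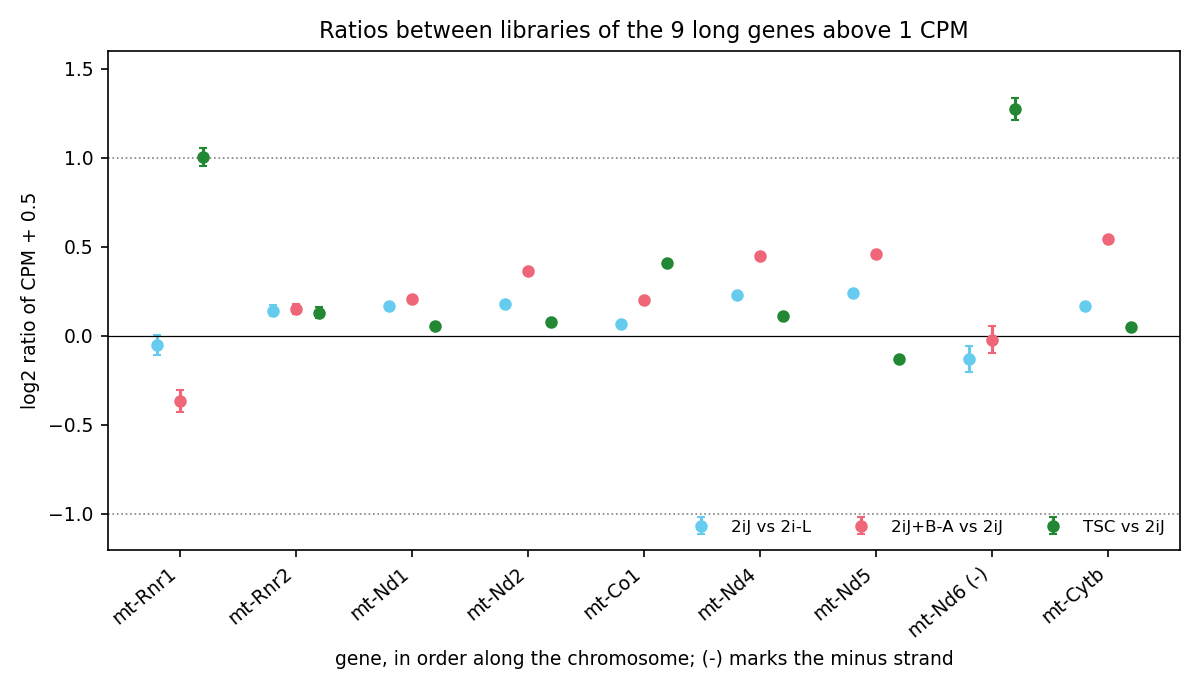
Points are log2 ratios of CPM + 0.5 (vertical axis) for the 9 mRNA and rRNA genes above 1 CPM, in order along the chromosome, for 3 comparisons; bars are 95% counting intervals and dotted lines mark log2 ratios of 1 either way. In 2iJ+B-A against 2iJ the plus-strand points run from -0.37 at mt-Rnr1 to 0.54 at mt-Cytb, not evenly, since mt-Co1 (0.20) lies below mt-Nd2 (0.36), and mt-Nd6 on the minus strand is at -0.021. In TSC against 2iJ mt-Rnr1 and mt-Nd6 stand at 1.00 and 1.27.

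The comparison of TSC with 2iJ sets trophoblast stem cells against the R1 cells. Here 2 of the 11 mitochondrial genes tested were past the fold, both higher in TSC, where 19.4% of all tested genes were higher and 17.6% lower, so that their share was near the background. The middle 80% of all genes lay between -1.63 and 1.70, and all 11 fell within it. mt-Nd6 was at 1.27 (1.21 to 1.34), a 2.42-fold level and higher than 84.9% of tested genes, and mt-Rnr1 was at 1.00 (0.95 to 1.06), a 2.01-fold level. The nearest gene outside the limit was mt-Tw at 0.997, with only 184 pairs in TSC and 81 in 2iJ, and with DESeq2 size factors mt-Rnr1 itself lay outside, at 0.99. The median of the 7 mRNAs was 0.076 (mt-Nd2, 0.061 to 0.091) against -0.0029 for all genes. mt-Co1 was at 0.41 (0.40 to 0.41), and the other 5 plus-strand mRNAs lay between -0.13 (mt-Nd5) and 0.11 (mt-Nd4). mt-Rnr2 was at 0.13 and mt-Tp at 0.80, with 58 and 25 pairs.

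Within each library the 2 rRNAs did not keep a fixed ratio. mt-Rnr1 had 0.297 (0.288 to 0.307) pairs per pair of mt-Rnr2 for 2i-L, 0.260 (0.252 to 0.269) for 2iJ, 0.182 (0.176 to 0.188) for 2iJ+B-A and 0.478 (0.466 to 0.490) for TSC. No pair of these counting intervals overlaps, and TSC and 2iJ+B-A were at opposite ends. The ratio of mt-Co1 to mt-Nd1 given above was highest in TSC.

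Strand was compared next, since both strands of this chromosome are transcribed and the libraries kept strand. Of the 2 stranded counts, the one for the strand opposite to the gene held 3.90% to 4.24% of the summed mitochondrial counts, against 2.99% to 3.29% for nuclear genes. The source was mainly mt-Nd6. RNA on the strand opposite to mt-Nd6, that is the plus strand that carries mt-Nd5 and mt-Cytb, had 22997, 27376, 41910 and 29379 pairs in 2i-L, 2iJ, 2iJ+B-A and TSC, and it outnumbered mt-Nd6 itself 7.68, 9.72, 13.8 and 4.18 times. Without mt-Nd6 the opposite-strand share of the other 36 genes was 1.47%, 1.20%, 0.899% and 1.87%.

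This matters for mt-Nd6, because the count that ignores strand does not keep the 2 RNAs apart. It is not their sum either: at 16055, 18446, 26975 and 22190 pairs it was below the 2 strands together in every library. Pairs that touch both mt-Nd5 and mt-Nd6 overlap 2 genes when strand is ignored and are then not counted. On that count its log2 ratio was 0.16 for 2iJ against 2i-L, 0.43 for 2iJ+B-A against 2iJ and 0.23 for TSC against 2iJ, where its own strand gave -0.13, -0.021 and 1.27. The opposite-strand share of well counted nuclear genes, at its 90th percentile, would correspond to 173 to 226 pairs per library if applied to the plus-strand RNA over mt-Nd6, against the 2815 to 7031 pairs counted for mt-Nd6. Relative to mt-Nd5, its neighbour across the junction printed above, mt-Nd6 stood at 0.0374, 0.0289, 0.0207 and 0.0768 pairs per pair.

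Minus-strand pairs over the plus-strand genes were concentrated on 2 of these genes. Those over mt-Nd5 can include pairs that also touch mt-Nd6 and were counted there too. Over mt-Nd5 minus-strand pairs made 6.25%, 4.63%, 2.88% and 9.90% of pairs (5339, 4728, 4330 and 10060), and over mt-Nd4 they made 5.92%, 4.31%, 2.58% and 5.29%. Both genes stood above the 90th percentile of nuclear genes in every library, which was 0.834%, 0.629%, 0.530% and 0.763%. The nuclear genes were 398 to 461 genes per library with at least 10000 pairs and no annotated gene on the other strand. Over mt-Co1 the share was lowest, at 0.266%, 0.239%, 0.204% and 0.358%, and in 2iJ and 2iJ+B-A no plus-strand gene other than mt-Nd4 and mt-Nd5 was above that percentile. In 2i-L 4 genes were, with mt-Rnr2 and mt-Nd2 added, and in TSC 6, with mt-Rnr1, mt-Rnr2, mt-Nd2 and mt-Cytb added.

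**Figure D4:**
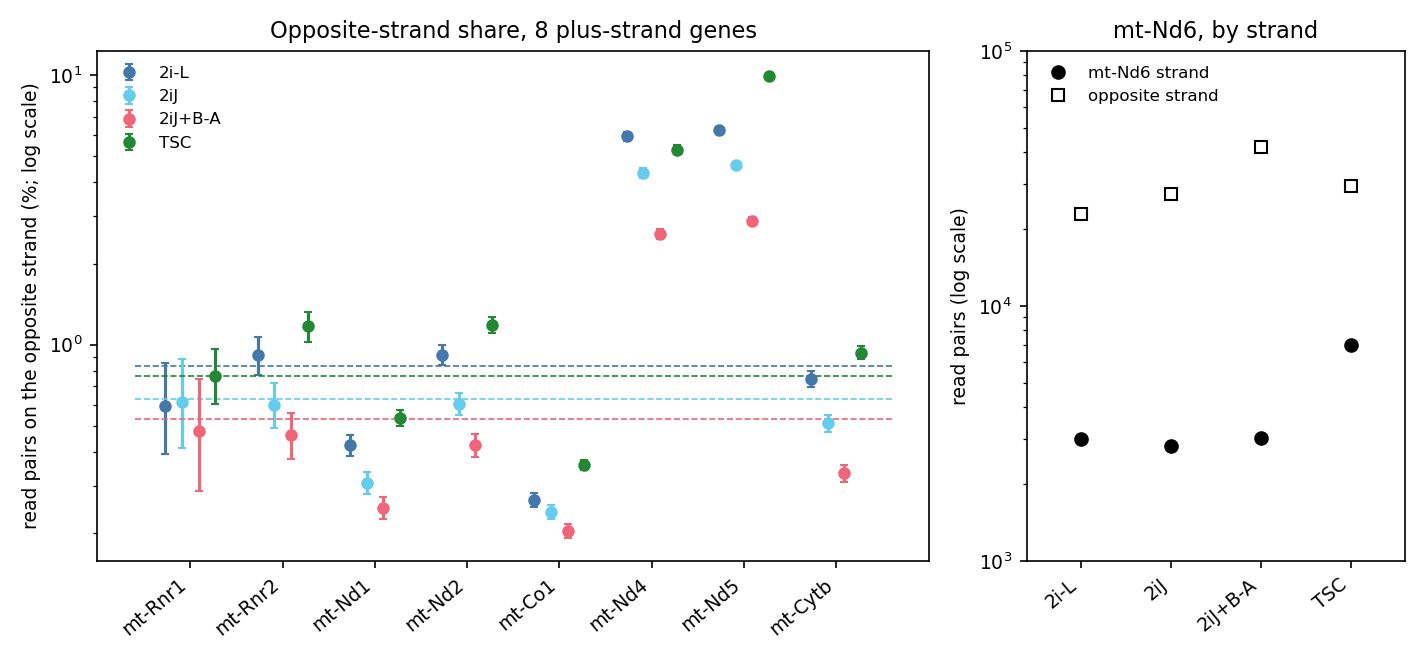
The left plot gives the percent of read pairs on the opposite strand (log axis, with 95% counting intervals) for 8 plus-strand genes in 4 libraries, and dashed lines of the same colour give the 90th percentile of well counted nuclear genes in that library; the right plot gives pairs on both strands over mt-Nd6 (log axis). mt-Nd4 and mt-Nd5 lie above all the lines, and the mt-Nd6 strand is highest in TSC with 7031 pairs.

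Summed over the chromosome by strand, the minus strand held 1.57% (1.54% to 1.59%) of mitochondrial counts for 2i-L, 1.24% (1.22% to 1.26%) for 2iJ, 0.892% (0.876% to 0.908%) for 2iJ+B-A and 2.11% (2.08% to 2.13%) for TSC. Pairs that touch both mt-Nd5 and mt-Nd6 enter these sums once for each gene. Without the mt-Nd6 count the minus strand had 18547 counts in TSC and 8994 to 10994 in the R1 libraries. The part of this over mt-Nd5 (10060 in TSC) can still hold mt-Nd6 pairs. How far the excess in TSC went beyond mt-Nd6 therefore cannot be told from these sums. Against 2iJ, the opposite-strand log2 ratio in TSC was 1.04 over mt-Nd5, 1.03 over mt-Nd2, 0.98 over mt-Co1, 0.91 over mt-Cytb and 0.83 over mt-Nd1, and 0.42 over mt-Nd4. Over mt-Co1 and mt-Nd1 the opposite-strand share in TSC, 0.358% and 0.534%, was within the range of nuclear genes (90th percentile 0.763%). At these 2 genes minus-strand RNA cannot be told from that background. The order of the libraries, 2iJ+B-A lowest, then 2iJ, 2i-L and TSC, was also the order of the ratio of mt-Rnr1 to mt-Rnr2 and of mt-Nd6 to mt-Nd5. The median opposite-strand share of the nuclear genes moved in this order too, at 0.283%, 0.326%, 0.402% and 0.427%, and its part in the mitochondrial differences was not tested.

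The 22 tRNA genes together had more pairs on the opposite strand, 1800, 2163, 2762 and 3631, than the 149 to 296 on their own. The 2 counts are not alike. A pair touching a neighbour on the tRNA strand is left out, but a pair of a neighbour on the opposite strand is counted for both genes. A pair on the opposite strand is also left out where it touches another gene annotated on the tRNA strand. Over mt-Te, the tRNA gene between mt-Nd6 and mt-Cytb, opposite-strand pairs, here of the plus strand, numbered 134, 250, 435 and 45. TSC was thus lowest there and 2iJ+B-A highest. Plus-strand pairs that reach both mt-Te and mt-Nd6 are not in these counts. Over mt-Tp they numbered 658, 766, 823 and 1599, and over mt-Ts1, at the end of mt-Co1, 761, 909, 1239 and 1553. In both of these TSC was highest, so these counts of plus-strand pairs over minus-strand tRNA genes did not follow a single order of libraries. The count that ignores strand was 0 for mt-Te and mt-Ts1 in every library, so all their pairs also touched another gene. For mt-Tp it was 598, 680, 739 and 1524.

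Nuclear genes of the same complexes were set beside the mitochondrial mRNAs. Of 71 nuclear subunits of complexes I, III, IV and V, 70 were tested. Their median log2 ratio was -0.061 for 2iJ against 2i-L, -0.10 for 2iJ+B-A against 2iJ and -0.044 for TSC against 2iJ, where the 7 mitochondrial mRNAs had 0.17, 0.36 and 0.076. None was past the fold in the first 2 comparisons, where 1.24% and 5.90% of all tested genes were higher and 0.909% and 3.14% lower. In TSC 2 of 70 were higher, where 19.4% of all tested genes were, namely Ndufs5 at 1.85 and Ndufa8 at 1.25, both subunits of complex I, and 1 of 70 was lower, where 17.6% of all tested genes were, namely Atp5g1, which encodes a c subunit of ATP synthase, at -1.21. By complex, the medians for 2iJ+B-A against 2iJ were -0.11 (complex I), -0.094 (III), -0.10 (IV) and -0.13 (V).

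Genes acting on mitochondrial DNA and RNA were read from further lists. Of 10 genes for mitochondrial transcription 9 were matched and none was past the fold in any comparison. Of all tested genes 1.24% were higher and 0.909% lower for 2iJ against 2i-L, and 5.90% and 3.14% for 2iJ+B-A against 2iJ. For TSC against 2iJ 19.4% were higher and 17.6% lower. Tfam, which packages the DNA and starts its transcription, was at 99.04, 92.94, 86.76 and 90.09 CPM in 2i-L, 2iJ, 2iJ+B-A and TSC, and the polymerase gene Polrmt was at 37.38, 40.44, 38.62 and 34.55 CPM. Both, like Pnpt1 below, fall outside the rule for named nuclear genes and were chosen after their values were seen. Of 12 genes for replication and maintenance none was past the fold between R1 libraries, against the same shares of all tested genes. In TSC none of the 12 was lower than in 2iJ by the fold, and 3 were higher, near the 19.4% of all tested genes. These 3 were Ccdc111, the primase-polymerase, at 1.38, and the nucleoside kinases Tk2 and Dguok at 1.16 and 1.13.

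Of 26 genes for mitochondrial RNA processing and stability none was past the fold between R1 libraries. Of all tested genes 1.24% and 5.90% were higher in these 2 comparisons, and 0.909% and 3.14% lower. In TSC 1 of 26 was higher and 1 lower, against 19.4% and 17.6% of all tested genes: Gtpbp3, a tRNA-modifying enzyme, at 1.15, and Grsf1 at -1.59 (-1.65 to -1.53). Grsf1, which encodes an RNA-binding protein of mitochondrial RNA granules known to bind the transcript of ND6, stood at 254.2, 268.0, 269.8 and 88.50 CPM. It was thus level across the R1 libraries and lowest in the library with most minus-strand RNA. Pnpt1, which encodes the mitochondrial RNA-degrading enzyme PNPase, was at 122.1, 136.6, 94.41 and 111.0 CPM, with a log2 ratio of -0.53 for 2iJ+B-A against 2iJ. Whether either bears on the mitochondrial RNAs was not tested.

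Of 11 regulators of mitochondrial biogenesis 9 were tested. Myc, a growth-promoting transcription factor, was at 4.893, 8.112, 24.26 and 97.91 CPM, with log2 ratios of 1.52 for 2iJ+B-A and 3.51 for TSC against 2iJ. Ppargc1b, a coactivator of mitochondrial genes, was at 1.501, 1.080, 4.012 and 11.31 CPM, with 1.51 and 2.90, the first of these at a level under the 10 CPM asked of named nuclear genes. Other regulators were lower in both libraries than in 2iJ: in the order 2iJ, 2iJ+B-A and TSC, Pprc1 was at 355.0, 297.5 and 184.2 CPM, Nrf1 at 71.46, 61.86 and 40.89, and Esrrb at 477.3, 303.8 and 246.3. These 3 fall outside the naming rule and were chosen after their values were seen. The median log2 ratio of the 9 was -0.095 for 2iJ against 2i-L, -0.0053 for 2iJ+B-A and -0.60 for TSC against 2iJ. In 2iJ+B-A 2 of the 9 were past the fold, both higher, where 5.90% of all tested genes were higher. In TSC 3 of the 9 were higher and 1 lower, where 19.4% and 17.6% of all tested genes were. With 9 genes these counts are too small to set apart from those shares. Whether any regulator bears on the mitochondrial share was not tested. Esrra was higher in TSC at 1.14, and Gabpa, a subunit of nuclear respiratory factor 2, was lower there by a little over the fold, with 244.0, 228.4, 235.2 and 113.7 CPM in 2i-L, 2iJ, 2iJ+B-A and TSC.

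**Figure D5:**
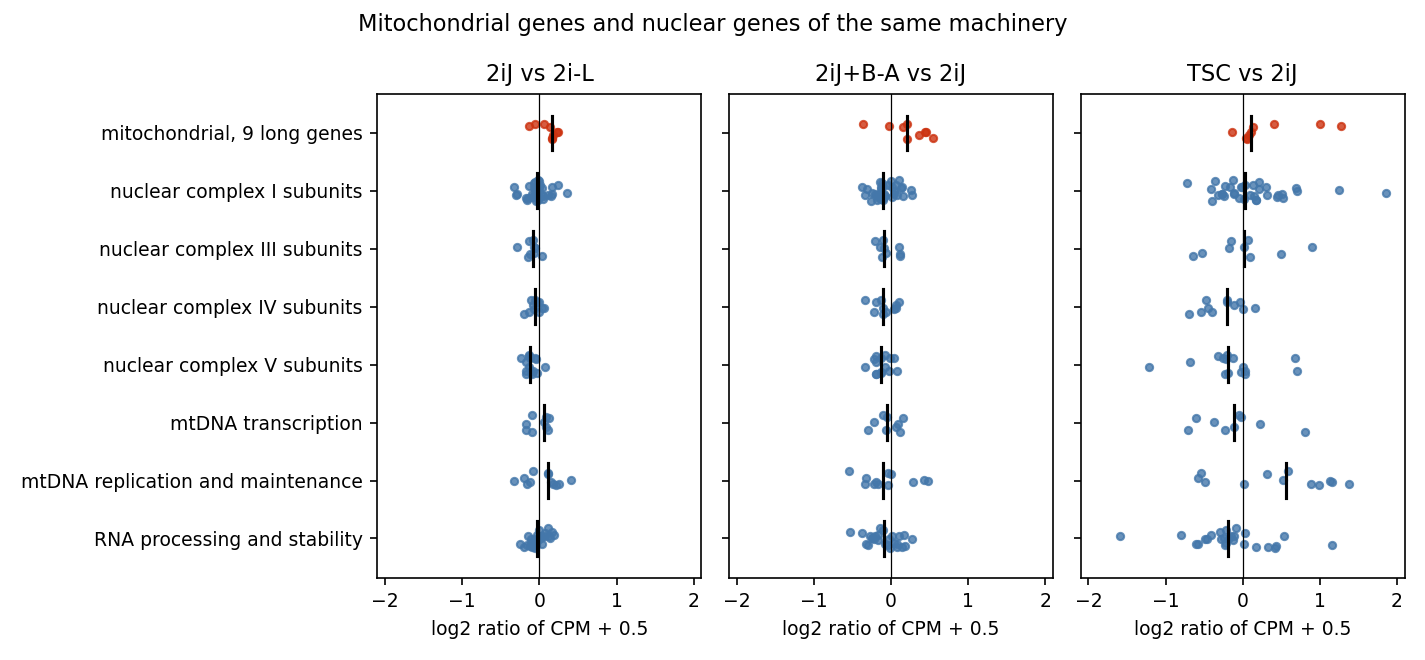
Each point is the log2 ratio of CPM + 0.5 (horizontal axis) of 1 gene in 1 of 3 comparisons, for the 9 long mitochondrial genes (red) and for nuclear genes of the same complexes or of mitochondrial DNA and RNA metabolism (blue); black ticks are medians and points are spread vertically only to separate them. In 2iJ+B-A against 2iJ the red points run from -0.37 to 0.54, those of nuclear complex I from -0.37 to 0.27 and those of nuclear complex V from -0.34 to 0.083.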

How the data were processed

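Libraries enriched for poly-A RNA were made with a kit that keeps strand, and paired reads of 126 bases were, per the labels, processed with CASAVA 1.8.2, cutadapt and STAR 2.4.2a. The authors deposited STAR gene counts per library, in which only uniquely mapped pairs that overlap 1 gene are counted. The annotation release is not given in the sources used here. The deposited count for the sense strand of this kit was used, with the other columns for strand comparisons. Of 37620 identifiers 37205 were found in the annotation of build NCBIM37 and none of its mitochondrial genes was missing. Genes above 1 CPM in at least 1 of 4 libraries were scaled with TMM (edgeR 4.0.16), and log2 ratios used CPM + 0.5. Intervals are exact binomial (95%). Nuclear copies were found with BLAST 2.17.0 (word size 28) and by exact matching of 126-base windows. The scripts were tested on simulated data. With 1 library per condition no count model was fitted. Values were given for every mRNA and rRNA gene, for tRNA genes with at least 10 counts, and for listed nuclear genes with at least 10 CPM and past the fold. Members and lists were chosen with earlier results of these data known. Alternatives were plain CPM, DESeq2 1.42.0 size factors, totals of nuclear genes, the unstranded count, a pseudocount of 1 CPM, no filter and 2i-L as the reference.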

Additional observations from a re-analysis of the deposited data

Results flagged for a closer look

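Counts were also found on annotated nuclear genes inside the chromosome 1 copy, which enter no comparison above. Gm10222 (build NCBIM37, chr1:24619243-24619539, minus strand) had 13 to 24 pairs on its own strand and 215 to 375 on the opposite strand, and Gm10925 (chr1:24620814-24621627, minus strand) had 37 to 80 on its own strand. The highest values were 24, 375 and 80, all in TSC, and each was above the 3 pairs that a count of 0 allows. Given the identity of the stretch, pairs of these genes and of mitochondrial RNA cannot be told apart except at the differing bases.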

How the results depend on the processing

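No paired analysis was possible because each condition has 1 library, and for the same reason no replicate could be left out. No mitochondrial share, median or count of genes past the fold changed direction under the alternatives below. The opposite-strand share of the mitochondrial genes did. With all 37 genes it was 3.978% in 2iJ+B-A and 3.901% in 2iJ, but under each alternative for it 2iJ+B-A was the lower of these. Without mt-Nd6 it was below that of nuclear genes, 2.986% to 3.290%, in every library, where with all 37 it was above. The mitochondrial share in 2i-L, 2iJ, 2iJ+B-A and TSC was 2.580%, 2.833%, 3.604% and 3.549% with the unstranded count, 2.054%, 2.267%, 2.927% and 2.838% of all read pairs, and 1.278%, 1.461%, 1.971% and 1.612% without mt-Co1, differences set by what each count includes. The opposite-strand share was 7.249%, 6.803%, 6.592% and 8.061% without mt-Co1, and 1.468%, 1.203%, 0.8989% and 1.874% over all genes without mt-Nd6, an alternative chosen after seeing the data. The median of the mRNAs for 2iJ against 2i-L was 0.1788 with plain CPM and 0.0647 over all 13 mRNAs (chosen after seeing the data). For 2iJ+B-A against 2iJ it was 0.4109 with plain CPM, 0.3463 with DESeq2 size factors, 0.4233 with the unstranded count, 0.2078 over all 13, and 0.5401 with 2i-L as the reference. For TSC it was 0.1645 with plain CPM and 0.2531 against 2i-L. The medians over all 13 take in the 6 mRNAs below 1 CPM, whose ratios the added 0.5 CPM draws towards 0. They therefore do not check the main median. The number of genes past the fold in TSC, 2 above, was 1 with DESeq2 size factors and 1 against 2i-L, and 3 with plain CPM, with totals of nuclear genes or with no filter. It was 2 with the unstranded count, mt-Nd6 not among them. Of single genes, mt-Nd6 changed sign with the unstranded count in both comparisons of R1 libraries and with plain CPM in 2iJ+B-A, and mt-Tp with the unstranded count in 2iJ against 2i-L. Exact nuclear copies limit what unique counting can show of 6 mRNAs, gene lengths below that of a read limit the tRNAs, and the missing replicates limit all ratios. For the scalings the cause of the shift was not tested.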
